A study of Homo sapiens with 8 samples.

Results

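Acetylation of histone H3 at lysine 27 (H3K27ac) and trimethylation at lysine 4 (H3K4me3) were set beside each other in untreated HL-60 cells, using the 4 control libraries of the 8 ChIP-seq libraries in the series. HL-60 (ATCC CCL-240) is an established human cell line from peripheral blood, labelled as acute promyelocytic leukemia. The control cells had received ethanol, the solvent of all-trans retinoic acid (ATRA), for 4 days, with medium and ethanol renewed during that time. All 4 libraries came from the same line and condition and differed in the antibody, with 2 replicates for H3K27ac and 2 for H3K4me3. The labels do not say whether the replicates came from separate cultures, so the spread between them may be technical. The comparison asks where in the genome of these cells each mark lay, where both lay together, and which genes carried them.

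H3K4me3 is deposited at the start sites of genes by the SET1 and MLL families of methyltransferases and is a mark of active and poised promoters. H3K27ac is deposited by the acetyltransferases p300 and CBP and is removed by histone deacetylases. It marks active promoters together with H3K4me3, and active enhancers, which usually have little H3K4me3. In promyelocytes, the stage at which neutrophil precursors fill their primary granules, enhancers are set up by factors such as PU.1, C/EBP and RUNX proteins.

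The deposited peak lists held 15457 and 29614 H3K27ac peaks in replicates 1 and 2, and 16160 and 13241 H3K4me3 peaks. H3K27ac replicate 2 stood apart from replicate 1: its peaks covered 54.0 Mb against 28.8 Mb, and 42.1% of them were found in replicate 1, against 83.7% the other way. Of the H3K4me3 peaks, 74.5% of replicate 1 and 96.2% of replicate 2 were found in the other replicate. Read depth is unknown here, so the lengths and presence of peaks are described and not their signal, and an absent peak does not show that the mark was absent. Results were therefore based on peaks found in both replicates of a mark, which are replicate 1 peaks with at least 1 bp under a replicate 2 peak. There were 12937 such H3K27ac peaks over 26.9 Mb and 12035 H3K4me3 peaks over 56.6 Mb.

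The libraries were checked against cell type markers by the presence of a peak found in both replicates within 1 kb of the gene 5′ end, which is called the promoter here. Of the 5 defining promyelocyte markers, MPO and CTSG had both marks, and ELANE, PRTN3 and AZU1 had neither at that position. ELANE, the gene of neutrophil elastase, had no peak of either mark in any of the 4 libraries from 5 kb upstream to its 3′ end. The myeloid factors SPI1, CEBPA, CEBPE, MYB and GFI1 had both marks. None of 10 T cell genes had a mark in both replicates, and of the 10 B cell, 10 erythroid, 10 megakaryocyte and 12 other tissue genes, 2, 3, 1 and 1 had at least 1 mark. The 5 myeloid factors were thus all marked, and 2 of the 5 granule markers were. Over all protein-coding genes, 33.4% had both marks and 47.7% neither. In the full list of 26 myeloid and progenitor factors, 10 had neither.

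Merging the kept peaks of both marks gave 3 kinds of sites. Both marks were present at 7350 sites (43.4% of all), H3K27ac alone at 4943 (29.2%) and H3K4me3 alone at 4653 (27.5%). Sites with both marks had a median length of 5452 bp, against 3200 bp for H3K4me3 alone and 1271 bp for H3K27ac alone. These counts moved with the libraries used. In the 4 possible pairs of 1 H3K27ac and 1 H3K4me3 library, sites with both marks numbered 7835 to 11082, H3K27ac alone 5711 to 18966 and H3K4me3 alone 3739 to 7067. The 2 highest counts of H3K27ac alone, 16772 and 18966, both used H3K27ac replicate 2, and the part of that library's larger peak list in them was not tested.

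**Figure D1:**
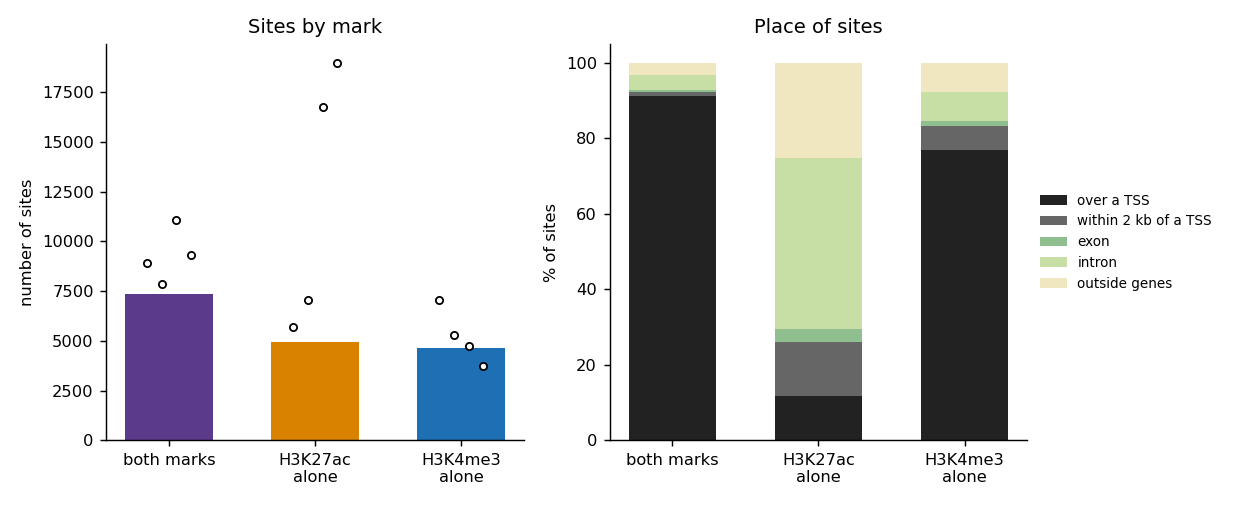
The left panel plots the number of sites of each kind, with bars for peaks found in both replicates and open points for the 4 pairs of single libraries, and the right panel plots the percentage of sites by their place relative to annotated transcription start sites (TSS) and genes. The points of H3K27ac alone range from 5711 to 18966, and 91.1% of sites with both marks lie over a TSS against 11.8% of those with H3K27ac alone.

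The word alone needs its measure. Of the 4653 sites with H3K4me3 alone, 2455 had no H3K27ac peak in either library, 1801 had one in replicate 2 only, 295 in replicate 1 only, and 102 had peaks in both libraries that did not overlap each other. Of the 4943 sites with H3K27ac alone, 3784 had no H3K4me3 peak in either library and 1144 had one in H3K4me3 replicate 1 only.

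The central sequence of the longest site of each kind is shown because these sites carry the contrast between the marks, followed by 2 promoters that differ in their marks. Each is 300 bases of GRCh37, the same build as hg19, and capitals mark matches to the motifs listed with the sequence results below. The longest site with both marks is chr14:22913585-22957280 in the T cell receptor alpha and delta locus, the longest with H3K27ac alone is chr2:136988505-137017439, 111758 bp from the start of CXCR4, and the longest with H3K4me3 alone is chr6:26319128-26334608 over the histone pseudogene H3C9P. The printed windows of these sites are chr14:22935283-22935582, chr2:137002822-137003121 and chr6:26326718-26327017, all on the plus strand and in no annotated exon. The promoter windows run from 280 bases before the gene 5′ end to 20 after it, in the direction of the gene, all on the minus strand, at chr5:178017375-178017674 for COL23A1 and chr1:156470552-156470851 for MEF2D.
Longest site with both marks: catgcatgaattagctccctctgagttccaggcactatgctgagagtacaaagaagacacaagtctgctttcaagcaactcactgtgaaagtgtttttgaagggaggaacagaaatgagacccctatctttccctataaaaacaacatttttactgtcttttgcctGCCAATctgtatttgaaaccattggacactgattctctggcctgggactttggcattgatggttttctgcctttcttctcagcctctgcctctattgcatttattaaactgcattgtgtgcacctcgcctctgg
Longest site with H3K27ac alone: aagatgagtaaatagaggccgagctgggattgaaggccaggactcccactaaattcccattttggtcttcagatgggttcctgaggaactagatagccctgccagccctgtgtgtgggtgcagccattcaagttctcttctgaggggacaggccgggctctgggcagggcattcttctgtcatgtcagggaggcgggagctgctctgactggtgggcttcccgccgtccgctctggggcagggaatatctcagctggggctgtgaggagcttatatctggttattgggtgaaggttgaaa
Longest site with H3K4me3 alone: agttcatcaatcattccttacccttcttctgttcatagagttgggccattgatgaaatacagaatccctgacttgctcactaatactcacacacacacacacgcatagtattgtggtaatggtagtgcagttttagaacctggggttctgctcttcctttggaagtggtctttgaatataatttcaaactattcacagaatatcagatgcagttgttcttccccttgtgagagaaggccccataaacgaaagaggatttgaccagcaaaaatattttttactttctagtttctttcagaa
COL23A1 promoter: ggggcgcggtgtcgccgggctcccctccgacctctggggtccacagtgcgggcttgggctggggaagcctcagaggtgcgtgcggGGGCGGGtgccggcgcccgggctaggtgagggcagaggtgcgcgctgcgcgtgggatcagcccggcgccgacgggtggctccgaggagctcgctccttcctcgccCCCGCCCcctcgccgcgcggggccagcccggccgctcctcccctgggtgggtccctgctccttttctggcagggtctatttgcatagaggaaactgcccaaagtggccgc
MEF2D promoter: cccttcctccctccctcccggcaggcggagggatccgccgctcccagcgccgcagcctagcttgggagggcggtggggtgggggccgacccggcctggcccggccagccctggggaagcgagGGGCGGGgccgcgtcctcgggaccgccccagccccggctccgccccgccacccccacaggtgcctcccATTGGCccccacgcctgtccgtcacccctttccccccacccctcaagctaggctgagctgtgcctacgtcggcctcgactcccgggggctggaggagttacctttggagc

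The chr14 window was covered by H3K27ac in both replicates and by H3K4me3 in neither, although its site as a whole holds both marks. The COL23A1 window was covered by H3K4me3 in both replicates and by H3K27ac in neither. The MEF2D window was covered by all 4 libraries. COL23A1 and MEF2D have 31 and 25 CpG in their 300 bases.

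H3K4me3 lay closer to gene starts than H3K27ac. In replicates 1 and 2, 62.1% and 46.2% of all H3K27ac peaks were within 2 kb of a TSS, against 74.97% and 84.9% of H3K4me3 peaks. The means were 54.2% ± 11.3 and 79.9% ± 7.02 (SD, n = 2 each), a difference of 25.8 percentage points. The libraries of the 2 marks did not overlap in this share, and the exact two-sided permutation test gave p = 0.333, the smallest that 2 against 2 libraries can give. The same limit holds for the other comparisons between libraries, of which 3 were made.

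H3K4me3 peaks were also longer. Their median lengths were 3555 and 3545 bp in the 2 replicates, against 1275 and 1052 bp for H3K27ac, a difference of means of 2386.5 bp (SD 7.07 and 158 bp, n = 2 each, exact permutation p = 0.333). The longest single peaks were those of H3K27ac, at 43696 and 42905 bp, against 33881 and 29243 bp for H3K4me3. H3K27ac peaks were shorter at the upper quartile too, at 2336 and 2329 bp against 5442 and 5083 bp. Of the peaks found in both replicates, 310 of 12937 for H3K27ac and 935 of 12035 for H3K4me3 were 8 kb and over. The reverse order is thus shown here for the single longest peaks only.

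The places of the 3 kinds of sites followed the marks. Of the sites with both marks, 92.3% were within 2 kb of a TSS, as were 83.4% of those with H3K4me3 alone and 26.1% of those with H3K27ac alone. The median distance to a TSS was 0 bp for the first 2 kinds, which is a site over the TSS, and 6680 bp for H3K27ac alone, of which 39.4% lay over 10 kb away. Sites over 2 kb from a TSS were placed by their centers. Such sites in introns made up 45.1% of all sites with H3K27ac alone, and those outside genes 25.3%. A protein-coding gene 5′ end lay under 74.8% of sites with both marks, 56.2% of those with H3K4me3 alone and 1.21% of those with H3K27ac alone.

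Where both marks met, the kept H3K4me3 peaks mostly surrounded those of H3K27ac. H3K4me3 extended beyond H3K27ac at both ends of 6191 of the 7350 sites (84.2%). The reverse held for 303 (4.12%), and the marks were offset at 856. These boundaries are those of replicate 1, which covered 28.8 Mb for H3K27ac and 59.8 Mb for H3K4me3, against 54.0 and 47.7 Mb in replicate 2. The nesting was not computed for other pairs of libraries. The median site with both marks had 5316 bp of H3K4me3 and 1731 bp of H3K27ac. Over all kept peaks, 54.7% of the H3K27ac bases were under H3K4me3 and 26.0% of the H3K4me3 bases were under H3K27ac.

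Overlap with the other mark rose with length for H3K4me3, whereas for H3K27ac the trend depended on the libraries used. H3K4me3 peaks found in both replicates overlapped H3K27ac in 15.7% of cases under 1 kb, 43.6% from 2 to 4 kb, 74.9% from 4 to 8 kb and 94.5% at 8 kb and over. Over the 4 pairs of single libraries the shares were 21.2% to 44.3% under 1 kb and 95.7% to 98.7% at 8 kb and over, and without H3K27ac replicate 1 the share under 1 kb was 33.4%. A longer peak has more bases in which to meet another peak, so the share of bases is given too: 14.1% of the H3K4me3 bases were under H3K27ac in peaks under 1 kb, 18.97% from 2 to 4 kb and 35.6% at 8 kb and over. In H3K27ac peaks found in both replicates the share that overlapped H3K4me3 was 52.2% under 1 kb, 69.5% from 2 to 4 kb and 57.7% at 8 kb and over. The fall at the longest peaks was not seen in every pair of libraries. H3K27ac replicate 2 rose from 25.2% under 1 kb to 79.4% at 8 kb and over against H3K4me3 replicate 1, and from 21.1% to 56.3% against replicate 2. H3K27ac replicate 1 went from 48.5% to 76.8% and from 41.4% to 57.9%. The bases of H3K27ac under H3K4me3 were 67.2% in peaks of 1 to 2 kb and 29.98% in those of 8 kb and over, so the longest of these H3K27ac peaks ran mostly outside H3K4me3.

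**Figure D2:**
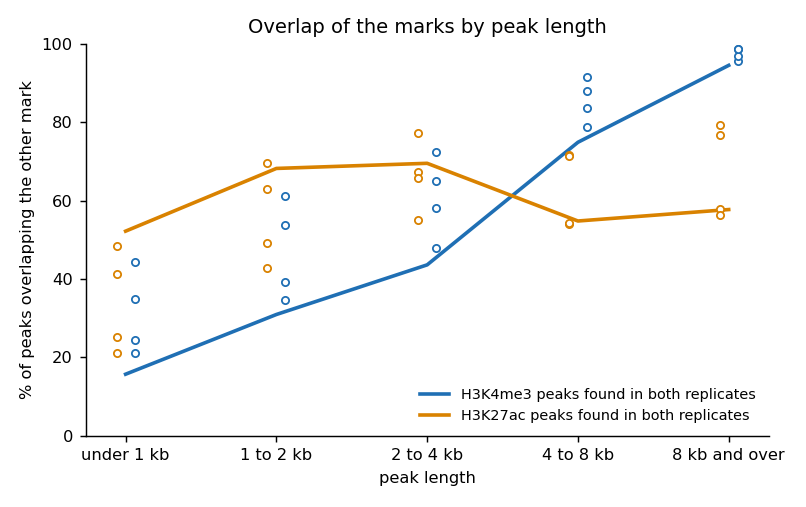
Percentage of peaks that overlap the other mark (vertical axis) by peak length (horizontal axis, 5 bins), for H3K4me3 in blue and H3K27ac in orange. Lines are peaks found in both replicates and open points are the 4 pairs of single libraries. The H3K4me3 line rises from 15.7% to 94.5%, while the H3K27ac line ends at 57.7% after a highest value of 69.5%, with single pairs up to 79.4%.

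Around gene starts the marks had different shapes. At 9594 protein-coding genes with no other protein-coding or lncRNA start within 10 kb, H3K4me3 covered 38.5% and 35.5% of 5′ ends in the 2 replicates. H3K27ac covered 14.5% and 19.5% at the 5′ end itself and 20.7% and 22.6% at 500 bp downstream, where both libraries had their highest value. A peak over the start reached a median of 3088.5 and 2894 bp into the gene and 1471.5 and 1115.5 bp upstream for H3K4me3. For H3K27ac the reach was 1205 and 1367.5 bp into the gene and 666 and 903.5 bp upstream. Both marks were thus longer on the downstream side, in 89.2% and 90.8% of the H3K4me3 peaks and 76.4% and 65.1% of the H3K27ac peaks.

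**Figure D3:**
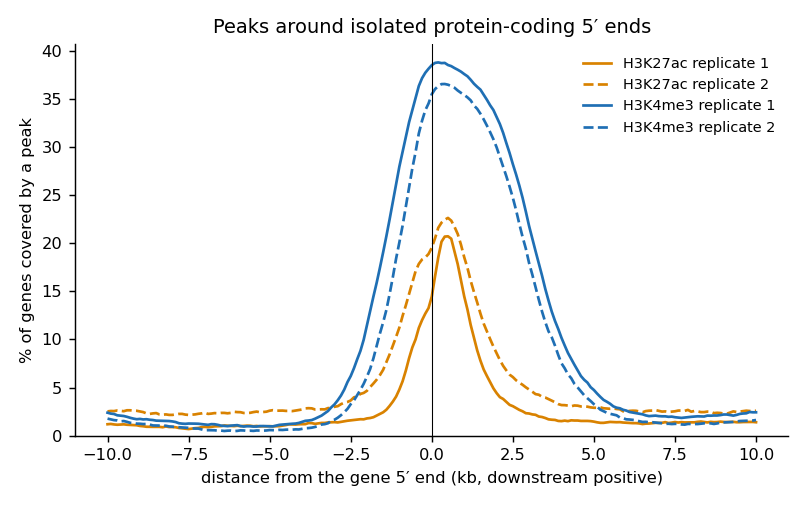
Percentage of 9594 isolated protein-coding genes covered by a peak (vertical axis) at distances from the gene 5′ end (horizontal axis, kb, downstream positive), 1 line per library, with replicate 2 dashed. H3K4me3 forms a broad plateau near 38.8% and 36.5% at its highest, and H3K27ac a narrower summit of 20.7% and 22.6% at 500 bp downstream.

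Of 20090 protein-coding genes, 6717 (33.4%) had both marks at the promoter, 3640 (18.1%) had H3K4me3 alone, 142 (0.707%) had H3K27ac alone and 9591 (47.7%) had neither. H3K4me3 was thus present at 51.6% and H3K27ac at 34.1%. H3K27ac at a promoter nearly always came with H3K4me3, whereas H3K4me3 came without H3K27ac at 3640 of 10357 genes. Of those 3640, 1937 had no H3K27ac peak at the promoter in either library. Over the 4 pairs of single libraries the count of genes with both marks was 7090 to 8146, and that with H3K27ac alone 148 to 375. Among 18592 lncRNA genes 2134 had both marks, 1403 H3K4me3 alone and 263 H3K27ac alone.

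Genes with both marks had longer H3K4me3 peaks over the 5′ end than genes with H3K4me3 alone, with medians of 5874 and 5118 bp in replicates 1 and 2 against 4346 and 3652.5 bp. Gene length hardly separated them, with medians of 30584 and 34111 bp.

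Of the 142 promoters with H3K27ac alone, those of 3 genes are described, 2 of them genes of the myeloid lineage. TYROBP, an adaptor of myeloid receptors, had H3K27ac over all 2001 bp of its promoter window in both replicates, and 1649 bp of H3K4me3 in replicate 1 and 0 in replicate 2. ADGRG3, an adhesion receptor of granulocytes, had 2001 bp of H3K27ac in both replicates and no H3K4me3 there in either. TRIB3, a pseudokinase of the stress response, had the same values at the promoter. Its gene region held 22650 and 22642 bp of H3K27ac and 5850 and 5410 bp of H3K4me3. These 3 genes were chosen after their values were seen, and a gene of this kind may start elsewhere than at its annotated 5′ end. Other genes had the same promoter values as ADGRG3, among them OR52W1, EPS8L3 and NUP210L. The share of myeloid genes among the 142 was not counted.

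The sequence under the marks differed as well. The ratio of observed to expected CpG measures how far CpG has been kept from loss by methylation, and CpG islands have high values. Over the central 1 kb of all peaks its median was 0.326 and 0.243 in the H3K27ac libraries and 0.48 and 0.535 in the H3K4me3 libraries, a difference of means of 0.223 (SD 0.0585 and 0.0388, n = 2 each, exact permutation p = 0.333, no overlap between the marks). Sites with both marks had a median of 0.579 and sites with H3K4me3 alone 0.619. In sites with H3K27ac alone the median was 0.201, and it was 0.218 in those within 2 kb of a TSS, so low CpG was found there near starts too. Of sites with H3K27ac alone 0.344% reached a ratio of 0.6, against 47.7% of sites with both marks and 52.4% of those with H3K4me3 alone.

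Promoters with H3K4me3 also had higher ratios than those with H3K27ac alone. The medians were 0.789 with both marks, 0.756 with H3K4me3 alone and 0.236 with H3K27ac alone. Both marks thus stood above H3K4me3 alone here, the reverse of their order in site centers. Of 12002 promoters with a ratio of at least 0.6 in the 1 kb around the 5′ end, 5877 (49.0%) had both marks, 2906 (24.2%) H3K4me3 alone and 17 H3K27ac alone. Of 8088 promoters under 0.6, 840 (10.4%) had both marks, 734 (9.08%) H3K4me3 alone and 125 (1.55%) H3K27ac alone.

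A set of 10 short motifs were searched on both strands in the central 300 bp of each site, and in 300 bp around all 20090 protein-coding 5′ ends, where N stands for any base. GAGGAAGT stood for PU.1 and CCGGAAGT for other ETS factors. The RUNX motif was TGTGGTT. C/EBP factors were searched as TTGCNNAA. SP and KLF factors had the letters GGGCGGG, which are in capitals in the COL23A1 and MEF2D promoters above. For GATA factors the letters were AGATAA. The letters for NFY were GCCAAT, found in the MEF2D promoter and the chr14 window. AP-1, NRF1 and the E-box of MYC and USF were searched by their usual consensus. No motif contains another in full, though GAGGAAGT and CCGGAAGT share their last 6 letters. The PU.1 letters were in 3.97% of sites with H3K27ac alone, 2.16% of those with both marks and 1.93% of those with H3K4me3 alone, against 1.57% of 300 bp windows taken every 10 kb along the genome and 2.34% of all promoters. The RUNX letters were in 7.02%, 4.10% and 3.61% of these sites, against 5.88% of genome windows. The C/EBP letters were in 14.8% of sites with H3K27ac alone against 15.8% of genome windows, and the GATA letters in 16.6% against 21.2%. The AP-1 consensus was in 9.06% against 9.31%, and the NFY and NRF1 letters were also below the genome level. The E-box was above it, in 4.71% against 2.69%, as were the ETS letters, in 0.364% against 0.134%. The GGGCGGG letters were rarest in sites with H3K27ac alone, at 2.37%, against 19.97% of those with both marks and 24.7% of those with H3K4me3 alone. They were in 1.51% of genome windows, 39.4% of promoters and 49.2% of promoters with both marks. The center of a site and the window around a gene start thus differ, and sites of unlike length were compared by their centers. Base composition differs between these sets, with a median GC over the central 1 kb of 46.7%, 53.7% and 56.5% in the same order. The genome windows of 300 bp had a median of 40%. The part of base composition in these shares was not tested.

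Among promoters, the ETS letters CCGGAAGT were in 10.5% of those with both marks, 6.87% of those with H3K4me3 alone and 0.772% of those with neither. The NRF1 letters were in 12.6%, 9.67% and 1.94%. A match of these letters is a description of the sequence and not a bound site.

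The longest sites with both marks had different makeups. The chr14 site in the T cell receptor locus was 43696 bp long and held 43696 and 40482 bp of H3K27ac in replicates 1 and 2, with 3367 and 574 bp of H3K4me3. It runs over the constant and joining segments of the delta chain and the first joining segments of the alpha chain, and 30 of 73 annotated T cell receptor joining segments had H3K27ac alone within 1 kb of their start, against 0.707% of protein-coding and 1.41% of lncRNA genes. Neighboring segments share peaks, and 12 of them lie under that 1 site. The CD3D, CD3E and CD3G genes, whose products form the receptor complex, had no peak of either mark in any library. H3K27ac thus covered most of this site, a part of the receptor locus, while the CD3 genes had no peak. Of 95 annotated T cell receptor variable segments, 84 had neither mark within 1 kb of their start, as had 37 of 73 joining segments. Neither mark was found at 47.7% of protein-coding and 79.6% of lncRNA genes.

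The chr11 site at chr11:63990002-64023882 was the reverse, with 33881 and 29528 bp of H3K4me3 and 7201 and 8731 bp of H3K27ac. It covers the 5′ ends of DNAJC4, FKBP2, NUDT22, PLCB3, PPP1R14B, TRPT1, VEGFB and a gene model without a symbol. The next 3 were chr12:7051629-7083746 over PTPN6, PHB2, EMG1 and C12orf57, chr17:56402581-56433284 over SUPT4H1, TSPOAP1 and the host gene of a hematopoietic microRNA, MIR142HG, and chr19:13038999-13069049 over CALR, FARSA and GADD45GIP1. PTPN6 encodes SHP-1, a phosphatase of blood cells. These 3 sites had 13942 to 24389 bp of H3K27ac and 21199 to 30704 bp of H3K4me3 per library.

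The microRNA loci under long sites included a pair of known myeloid loci, named here after their values were seen. Longer sites with both marks held other microRNA genes: MIR141 and MIR200C under the chromosome 12 site of 32118 bp, and MIR4736 under the chromosome 17 site of 30704 bp. MIR223, the gene of a microRNA highly expressed in neutrophils, lies at chrX:65238712-65238821 under a site of 28679 bp. H3K27ac filled all 28679 bp of that site in both replicates, and H3K4me3 held 6477 and 4175 bp. MIR23A and MIR27A lie together on chromosome 19 under a site of 17754 bp with 15854 and 14674 bp of H3K27ac and 15434 and 12135 bp of H3K4me3. In all, 171 of 3029 annotated microRNA genes (5.65%) lay under sites with both marks, 13 (0.429%) under H3K27ac alone and 54 (1.78%) under H3K4me3 alone. The mature strands from RefSeq (GRCh38.p14) are shown because the loci are described by their product, with the seed, bases 2 to 8, in capitals.
miR-223-3p: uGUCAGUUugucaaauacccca
miR-23a-3p: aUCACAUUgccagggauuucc
miR-27a-3p: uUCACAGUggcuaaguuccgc

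The 3 seeds differ from one another.

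The longest sites with H3K27ac alone lay far from the 5′ ends of protein-coding genes, although 4 of the 5 were over or within 2 kb of the TSS of some annotated transcript. The chr2 site of 28935 bp, whose nearest protein-coding gene is CXCR4, was filled by H3K27ac in both libraries and had no H3K4me3 in either. CXCR4 encodes the chemokine receptor that holds myeloid cells in the bone marrow. The next 4 lay inside RIN3 (25197 bp), MBP (24205 bp) and MICAL2 (24138 bp), and 15841 bp from CYP11A1 (21215 bp). The MBP site had 5268 bp of H3K4me3 in replicate 1 and none in replicate 2, the RIN3 site 200 bp in replicate 1, and the other 2 none.

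The longest sites with H3K4me3 alone were shorter, from 15481 to 11292 bp. After the chr6 site came those over ZNF503, over COPS7B and PDE6D, over KIFC2 and ZFTRAF1 on chromosome 8, and over CCDC32 and RPUSD2. None had an H3K27ac peak found in both replicates, but each held 345 to 3134 bp of H3K27ac in at least 1 library. The chr6 site covers a histone pseudogene, and histone genes have near-identical copies, so its peak is uncertain.

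By the bases under peaks from 5 kb upstream of the 5′ end to the 3′ end, COL23A1 had the most H3K27ac of all protein-coding genes. COL23A1 (chr5:177664477-178017394), which encodes a membrane collagen, had 99148 and 82076 bp of H3K27ac and 17884 and 11571 bp of H3K4me3. Its region also held the most sites with H3K27ac alone over 2 kb from a TSS, 16 of them, while its 5′ end was in H3K4me3 peaks of 4850 and 3988 bp and in no H3K27ac peak. ZMIZ1, a coregulator of the PIAS family, followed with 103955 and 48861 bp of H3K27ac, and its replicates lay further apart than those of COL23A1. AHRR, the repressor of the aryl hydrocarbon receptor, had 73066 and 49419 bp, and the read-through gene PDCD6-AHRR had the same bases. MBP had 60076 and 60255 bp and CHST11, a chondroitin sulfotransferase, 50581 and 61756 bp. H3K27ac was above H3K4me3 in every pair of libraries at each of these 6 genes.

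MICAL2, an actin-oxidizing enzyme, entered the list of largest excess of H3K27ac over H3K4me3 with 56497 and 51957 bp against 5522 and 3756 bp, and had neither mark at its annotated 5′ end. Long genes offer more room: the 100 genes with the most H3K27ac had a median length of 200288 bp, the 100 with the most H3K4me3 85578 bp, and all protein-coding genes 27256.5 bp.

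ELF1, an ETS factor of blood cells, had the most H3K4me3, with 40237 and 28477 bp, and 17304 and 42468 bp of H3K27ac, so its marks overlapped between libraries. The next 3 were gene models without a symbol, 149138 to 795004 bp long. ERCC1, a nuclease subunit of DNA repair, had 33597 and 18076 bp of H3K4me3 against 5558 and 7852 bp of H3K27ac, and MARK4, a microtubule kinase, 28306 and 23040 bp against 6620 and 9513 bp. ERCC1 also had the largest excess of H3K4me3, with means of 25836.5 and 6705 bp, followed by ARMH4 with 26299 and 22227 bp against 6048 and 6370 bp. Of the 100 genes with the most of each mark, 20 were in both lists.

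**Figure D4:**
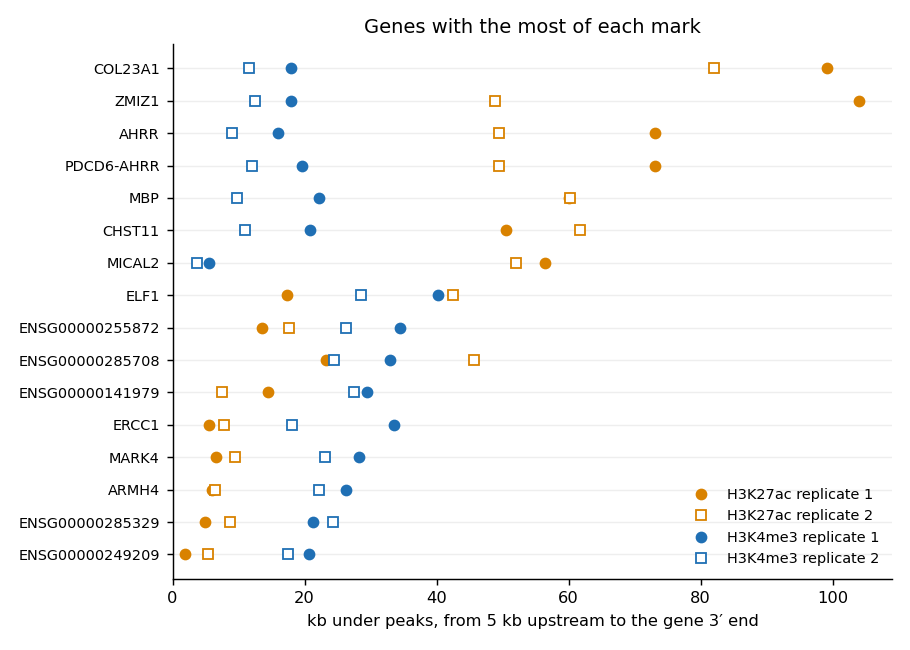
Kilobases under peaks from 5 kb upstream of the 5′ end to the 3′ end (horizontal axis) for the 6 leading genes by H3K27ac, by H3K4me3 and by the excess of each mark (16 rows after repeats are removed), H3K27ac in orange and H3K4me3 in blue, with filled points for replicate 1 and open squares for replicate 2. At COL23A1 the H3K27ac points lie at 99148 and 82076 bp, far right of the H3K4me3 points, and at ERCC1 the order is reversed.

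Ranked by the replicate 1 length of peaks found in both replicates, the longest H3K27ac peak over a 5′ end was at MEF2D (chr1:156433519-156470571), a MADS-box transcription factor. It was 22783 bp in replicate 1 and 10986 bp in replicate 2, with H3K4me3 peaks of 16646 and 11195 bp. ORAI2, a calcium channel subunit, came second with H3K27ac peaks of 19971 and 21580 bp against H3K4me3 peaks of 5756 and 0 bp. The histone genes H2AC4, H3C1, H3C2 and H4C1 on chromosome 6, whose copies are near-identical, shared a replicate 1 peak of 16358 bp. In replicate 2 the peak over H2AC4, H3C2 and H4C1 was 39242 bp and H3C1 had none over its 5′ end, so the order of these genes differs between the replicates. In the same ranking of H3K4me3 the longest was the 33881 bp peak of replicate 1 on chromosome 11 that 8 genes shared, and in replicate 2 the peaks over their 5′ ends were 4252 to 17885 bp. The top 100 genes by the length of this peak had 3 genes in common between the marks.

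Primary granule genes, which encode the proteases and antimicrobial proteins of promyelocytes, were found in several states. Of 14 genes, 4 had both marks, 4 H3K4me3 alone and 6 neither, against 33.4%, 18.1% and 47.7% of all genes. Without H3K27ac replicate 1, 7 had both marks and 1 H3K4me3 alone. MPO (chr17:56347216-56358296), myeloperoxidase, had the longest peaks of the list, with 12504 and 19771 bp of H3K27ac and 16849 and 16627 bp of H3K4me3 over the 5′ end. CTSG, cathepsin G, had H3K27ac peaks of 3207 and 3464 bp against 1532 and 611 bp of H3K4me3, the reverse of the common order of lengths. PRSS57 and CST7 also had both marks. PRTN3, proteinase 3, had 895 bp of H3K27ac in replicate 2 and none in replicate 1, and AZU1, azurocidin, 373 bp in replicate 2 and none in replicate 1. At both, H3K4me3 lay further inside the gene region, at 1577 and 1181 bp for PRTN3 and 3624 and 2065 bp for AZU1. RNASE2, BPI and SERPINB1 had H3K4me3 alone with H3K27ac in replicate 2 only (2001, 1109 and 1767 bp of the promoter). LYZ and DEFA4 had no promoter peak in any library, and RNASE3 had 2001 bp of H3K27ac in replicate 2 only.

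None of 14 secondary and tertiary granule genes, which are switched on after the promyelocyte stage, had either mark at the promoter, where 47.7% of all genes had neither. LTF, lactoferrin, and LCN2 had no promoter peak in any library and CAMP had 859 bp of H3K27ac in replicate 2 only. MMP25, a membrane protease, had the most bases under peaks in its region, with 6544 and 7315 bp of H3K27ac and 5789 and 5422 bp of H3K4me3.

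Of 22 genes of mature neutrophil function, 4 had both marks, 2 H3K4me3 alone, 2 H3K27ac alone and 14 neither, against 33.4%, 18.1%, 0.707% and 47.7% of all genes. Without H3K4me3 replicate 2, 4 had H3K4me3 alone. The receptors CSF3R, CXCR2 and FCGR2A and the oxidase subunit NCF4 had both marks. NCF4 had H3K27ac peaks of 5545 and 5366 bp and H3K4me3 peaks of 4012 and 3546 bp over its 5′ end. ITGAX, an integrin subunit, had H3K27ac alone, at 332 and 1638 bp of the promoter, and no H3K4me3 there in either replicate. ITGAM and CYBA had H3K4me3 alone, with 926 and 534 bp at ITGAM. CYBB, the catalytic oxidase subunit, had 324 bp of H3K27ac at the promoter in replicate 2 only and 819 and 10573 bp in its region. S100A8 and S100A12 had no promoter peak in any library, and S100A9 had 188 bp of H3K27ac in replicate 2.

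Transcription factors of myeloid and progenitor cells carried both marks in 14 of 26 cases, with 2 H3K4me3 alone and 10 neither, against 33.4%, 18.1% and 47.7% of all genes. Without H3K27ac replicate 1, 1 had H3K4me3 alone. SPI1, which encodes PU.1, had all 2001 bp of the promoter under both marks in all 4 libraries, with H3K27ac peaks of 5650 and 6030 bp and H3K4me3 peaks of 9515 and 8093 bp. CEBPE had H3K27ac peaks of 11533 and 13863 bp and H3K4me3 peaks of 11536 and 7469 bp, so the lengths of the marks overlapped between libraries. CEBPA had 96 and 2001 bp of H3K27ac and 2001 bp of H3K4me3 in both replicates at the promoter, so its H3K27ac rested mostly on replicate 2. MYB had H3K27ac peaks of 2914 and 24512 bp and H3K4me3 peaks of 15251 and 13030 bp. GATA2 (chr3:128198270-128212044), GFI1, LMO2, LYL1 and ETV6 had all 2001 bp under both marks in every library. MYC, of which HL-60 is known to carry extra copies, had H3K27ac peaks of 4071 and 5804 bp and H3K4me3 peaks of 11177 and 10355 bp. The part of copy number in these lengths was not tested.

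KLF4 and ZBTB16 had H3K4me3 alone. ZBTB16, the gene of PLZF, had 35629 and 51533 bp of H3K27ac over its region against 8237 and 6577 bp of H3K4me3, and 0 and 1550 bp of H3K27ac at its promoter. RUNX1, RUNX2, RUNX3, FLI1 and RARA had neither mark at the annotated gene 5′ end but both marks within 1 kb of some protein-coding transcript start. With any such start the list counted 19 of 26 with both marks, against 7374 of all 20090 genes (36.7%). RUNX1 had 30545 and 64804 bp of H3K27ac and 24074 and 15193 bp of H3K4me3 in its region. TAL1, ERG, IRF8, HOXA9 and MEIS1 had neither mark by either definition, and IRF8, a factor of the monocyte branch, and MEIS1 had no peak in any library.

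Of 14 progenitor and myeloid surface proteins, 5 had both marks (CD33, CSF2RB, TFRC, SPN and PTPRC) and 3 H3K4me3 alone (KIT, CD38 and CD48), shares near the 33.4% and 18.1% of all genes. SPN, leukosialin, had 2001 bp of both marks in all 4 libraries. CD33 had 277 and 1914 bp of H3K27ac and 2001 and 2001 bp of H3K4me3, and KIT had 0 and 0 bp against 1873 and 0 bp. CD34, FLT3 and CSF1R had neither. CSF2RA and IL3RA, also with neither, lie in a region with copies on both sex chromosomes and are uncertain.

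Markers of other cells that did carry marks were few. Of the B cell list, CD79A had both marks (H3K27ac 1292 and 2001 bp, H3K4me3 1203 and 0 bp at the promoter). KLF1 and EPOR of the erythroid list had H3K4me3 alone and GATA1 both, with H3K27ac of 768 and 0 bp. ITGA2B of the megakaryocyte list had both (486 and 1159 bp of H3K27ac, 2001 and 1998 bp of H3K4me3). A value of 0 in 1 replicate arises here where the kept replicate 1 peak met a replicate 2 peak outside the promoter. The globin genes and ALAS2 had no promoter peak in any library.

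Genes of growth and housekeeping mostly had both marks, as did 71 of 81 cytosolic ribosomal protein genes, 16 of 20 DNA replication genes and 11 of 14 proteasome core genes, against 33.4% of all genes. MCM2, a subunit of the replicative helicase, had H3K27ac peaks of 3982 and 2946 bp and H3K4me3 peaks of 14749 and 6201 bp. PCNA had H3K4me3 alone, with 0 and 13 bp of H3K27ac, and RFC5 neither, but both had both marks at another coding start. PSMA1 had H3K27ac peaks of 1795 and 3804 bp and H3K4me3 peaks of 9223 and 7579 bp, and PSMB6 and PSMB7 had H3K4me3 alone. PSMB7 had 463 and 392 bp of H3K27ac at its promoter in peaks that did not overlap between the replicates. Over the 5′ ends of 74 ribosomal protein genes the median H3K4me3 peak was 7213.5 bp, against 5349 bp at the 10066 of all protein-coding genes with such a peak. Processed copies of ribosomal protein genes make their peaks less certain.

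The enzymes of the marks themselves were covered. Of 15 H3K4 methyltransferase and demethylase genes, 14 had both marks, against 33.4% of all genes, and DPY30 had H3K4me3 alone. KMT2D had H3K27ac peaks of 5335 and 6210 bp and H3K4me3 peaks of 9403 and 8868 bp. SETD1B had the longest H3K4me3 peak of its list, 26263 bp in replicate 1 and 12207 bp in replicate 2. Of 16 histone acetyltransferase and deacetylase genes, 7 had both marks and 7 H3K4me3 alone, against 33.4% and 18.1% of all genes. Without H3K27ac replicate 1, 4 had H3K4me3 alone. EP300, the gene of p300, had 2001 bp of both marks in all libraries, while CREBBP, the gene of CBP, had no H3K27ac at the promoter in either replicate and 1850 and 1154 bp of H3K4me3. HDAC2 and HDAC7 had neither at the annotated 5′ end and both marks at another coding start. KAT6B and KAT8 had H3K4me3 alone at the annotated 5′ end and both marks once any coding start was counted. By that count 11 of the 16 had both marks and 5 H3K4me3 alone, against 7374 and 3573 of all 20090 genes.

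Zinc finger genes on chromosome 19 had both marks in 70 of 249 cases and H3K4me3 alone in 57, against 33.4% and 18.1% of all genes. Of 39 HOX genes, 1 had both marks (HOXD13, with H3K27ac of 440 and 406 bp), 7 had H3K4me3 alone and 31 neither, against 33.4%, 18.1% and 47.7% of all genes. Without H3K27ac replicate 1, 4 HOX genes had both marks and 4 H3K4me3 alone. HOXA13 had H3K4me3 over 2001 and 1044 bp of the promoter, with 0 and 94 bp of H3K27ac. Of 40 developmental homeobox and T-box genes, DLX1, DLX2, IRX5 and OTX1 had both marks, LHX2 and IRX3 H3K4me3 alone, and 34 neither, where 47.7% of all genes had neither. IRX5 had 1865 bp of H3K27ac in both replicates. None of 415 olfactory receptor genes had H3K4me3, against 51.6% of all genes. H3K27ac alone was at 4 of them (0.964%), near the 0.707% of all genes, among them OR52W1 with 2001 bp in both replicates. Zinc finger and olfactory receptor genes have near-identical relatives, and their single values are uncertain.

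**Figure D5:**
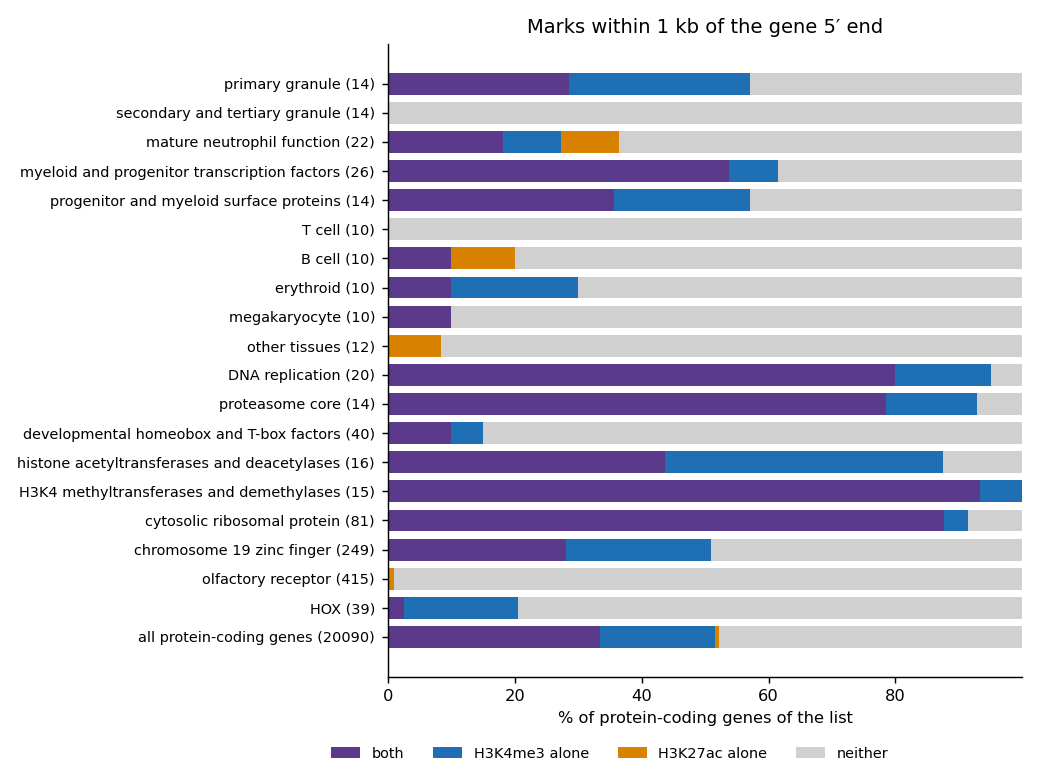
Percentage of the protein-coding genes of each list (rows, number of genes in brackets, last row all genes) with both marks, H3K4me3 alone, H3K27ac alone or neither within 1 kb of the gene 5′ end. Both marks reach 71 of 81 ribosomal protein genes and 0 of 14 secondary and tertiary granule genes, against 33.4% of all genes.

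Away from promoters, 3652 sites with H3K27ac alone were over 2 kb from any TSS, and 1937 of them (53.0%) lay in the body of a protein-coding gene. The nearest protein-coding gene had both marks at its promoter for 45.4% of them, H3K4me3 alone for 19.9% and neither for 32.7%, where 33.4%, 18.1% and 47.7% of all genes were in these states. The sites were nearest to 2198 different genes. After COL23A1, ARHGAP26 with 11 and CHST11, ETV6 and PREX1 with 9 each had the most of them in their region. ETV6, an ETS repressor of blood stem cells, had both marks at the promoter, and CHST11, PREX1 and COL23A1 had H3K4me3 alone there.

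Chromosomes differed in the mix of sites. On chromosome 19, 14.9% of 949 sites had H3K27ac alone and 50.7% both marks. On chromosome 20, 39.2% of 513 sites had H3K27ac alone. On the X chromosome, 40.4% of 451 sites had H3K4me3 alone, against 27.5% over all chromosomes.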

How the data were processed

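Chromatin immunoprecipitation sequencing was performed by the authors on HL-60 cells. Per the labels and the study's methods, adapters were removed with cutadapt, reads were aligned to hg19 with Bowtie, and broad peaks were called with MACS2 for each library separately. Versions, and whether the input libraries entered the calls, are not given in the sources used here. The deposited peak lists hold peak positions and a −log10 q value for each peak by the authors' peak caller. Positions were used throughout and the deposited −log10 q only as a filter of at least 5. The fold enrichment and −log10 p columns were left out because they hold values that such measures cannot take. The number of reads and fragments is not in the lists, so no interval for counting error was given.

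Libraries were grouped by antibody from the labels, and the 4 ATRA libraries were not used. Peaks of replicate 1 overlapping replicate 2 by at least 1 bp were kept, then merged across marks into sites. A total of 2 mitochondrial peaks of H3K27ac replicate 2 were left out. Genes came from GENCODE release 44 mapped to GRCh37, and a promoter was 1 kb on either side of the 5′ end of each of 20090 protein-coding genes. Sequence came from GRCh37. One value per library was compared by an exact two-sided permutation test. Scripts used Python 3.11.15, numpy 2.4.6 and pandas 2.3.3 and were tested on simulated data. Named genes were the 6 leading genes of each ranking, the 5 longest sites of each kind and members of 19 fixed lists, with the exceptions stated as chosen after their values were seen. The members, lists and tests were chosen with earlier results of these data known. Some list members and 1 sequence are not reported here. Alternatives covered the replicate rule, overlap, q value, peak length, distance to a TSS, promoter width, sequence window, each library left out and pairing by replicate number.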

Additional observations from a re-analysis of the deposited data

Results flagged for a closer look

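Outside the chromosomes analysed, 2 mitochondrial peaks were present in control H3K27ac replicate 2, and none in the other 3 control libraries. Mitochondrial DNA carries no histones. These peaks entered no comparison.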

How the results depend on the processing

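Of 96 alternative values for the main counts and differences, 76 stayed, 20 moved and 0 reversed. A count stayed if it was within 1.5 times the reported count, and a difference stayed if its sign was unchanged, whatever its size. Of 456 values for the other shares and gene lists, 361 stayed and 95 moved. The limit for shares was the SD over the 4 pairs of single libraries. The 3 differences between libraries kept their direction in every alternative run, with an exact permutation p of 0.333 except for the share near a TSS without H3K4me3 replicate 2 (exact p = 0.667), neither of which can pass a threshold in so small a design. Pairing by replicate number, the replicate block, gave the same 25.8 points, 2386.5 bp and 0.223. With equal numbers of libraries this is so by arithmetic, so it tests nothing, although these values count among the 76 that stayed. Their ranges with 1 library left out were 17.8 to 33.8 points, 2275 to 2498 bp and 0.182 to 0.264.

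With a reciprocal overlap of 50%, sites numbered 4261 with both marks and 2050 with H3K27ac alone, and promoters 4268 with both marks and 228 with H3K27ac alone. With peaks of at least 1 kb, sites numbered 4714 with both marks and 2868 with H3K27ac alone. With a −log10 q of at least 5, sites numbered 186, 138 and 9403 with both marks, H3K27ac alone and H3K4me3 alone, and promoters 179, 15 and 8750. That filter kept 16.8% and 12.8% of the H3K27ac peaks in replicates 1 and 2, against 87.4% and 84.8% of the H3K4me3 peaks. Of the H3K27ac peaks past that filter, 12.9% and 8.63% met such a peak of the other replicate, against 67.9% and 89.6% for H3K4me3. Counting as alone only sites absent from each library of the other mark left 2455 with H3K4me3 alone. With 1 library left out, sites with H3K27ac alone ranged from 3796 to 18672 and those with H3K4me3 alone from 2754 to 7507, and promoters with H3K4me3 alone from 2283 to 3925 and with H3K27ac alone from 106 to 357. Values of 18672, 2754, 2283 and 357 came without H3K27ac replicate 1, and 7507 without H3K4me3 replicate 2. Sites and promoters with both marks ranged from 7416 to 9204 and from 6709 to 8074.

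The deviations of same-numbered libraries had a correlation of −0.0529 across 13567 genes. With 2 libraries a mark, this cannot show whether same-numbered libraries share an origin. The replicate block gave 12338.5 sites and 261.5 promoters with H3K27ac alone. The causes of these shifts were not tested. Depth is unknown, so peaks missed at low depth cannot be told apart from absent marks.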
